A study of Mus musculus with 2 samples.

Results

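The genes examined encode the subunits of voltage-gated sodium and calcium channels. They were chosen by symbol alone, as all features named Scn or Cacn with the suffix of a pore-forming or an accessory subunit, which gave 40 of the 55416 features in the count matrices. By family these were 10 sodium channel alpha genes, 4 sodium channel beta genes, 10 calcium channel alpha1 genes, 4 alpha2delta genes, 4 calcium channel beta genes and 8 gamma genes. The counts came from single nuclei of whole fetal mouse brain, frozen before the nuclei were isolated. The wildtype group and the Cav1 knockout group had 1 library each. The series asks about caveolin 1 in the metabolism of the developing brain. Strain, sex, exact fetal age, the number of animals per library and the kind of Cav1 allele are not given in the sources used here. Cav1 encodes caveolin 1, a membrane protein that forms caveolae.

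Sodium channel alpha subunits form the pore that carries the upstroke of the action potential, and small beta subunits with a single membrane span set its gating and its place in the membrane. Calcium channel alpha1 subunits form the calcium pore. In L-type, P/Q-type, N-type and R-type channels the pore is joined by a cytoplasmic beta subunit and an extracellular alpha2delta subunit, which bring it to the surface, whereas T-type pores work without a fixed requirement for either. In fetal brain, calcium channels are known to carry signals during migration and axon growth, before mature firing sets in.

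After filtering, 6686 nuclei with 17205381 unique molecular identifiers (UMIs, counts of single captured RNA molecules) were kept in the wildtype-labelled library and 6680 nuclei with 19878903 UMIs in the knockout-labelled library. The median nucleus held 2133.5 and 2366 UMIs. The libraries shared 10 barcode sequences among kept nuclei. Cav1, the targeted gene, had 71 and 80 UMIs, 4.13 and 4.02 CPM (its part of the summed UMIs, scaled to 1e6) (log2 ratio, knockout-labelled over wildtype-labelled, −0.04, counting interval −0.52 to 0.45). That total does not tell the libraries apart, so they are named by their labels throughout. Paired values below give the wildtype-labelled library first. Each group is 1 library, so no difference between them has a replicate check or a p-value, and all intervals (exact, 95%) cover counting error only.

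Nuclei were clustered without the 40 genes and named from fixed marker lists, and 12 named classes with at least 40 nuclei in each library are described. The highest class of a gene means the highest of these 12. Each name has the suffix -like, as it rests on markers. The dividing cell-like class was cluster 20 alone (101 and 91 nuclei). The radial glia-like class also held dividing nuclei, as in cluster 17 (218 and 184 nuclei), where 9 dividing markers were at 2-fold. The class sizes ran from 47 and 46 choroid plexus epithelium-like nuclei to 1771 and 1276 cortical excitatory neuron-like nuclei. Unnamed clusters held 15.2% and 21.6% of nuclei. All 14 general neuron markers had UMIs in every class: their summed level was 3101 and 3607 CPM in radial glia-like nuclei, 6430 and 6134 CPM in fibroblast-like, 5702 and 6436 CPM in endothelial cell-like, 6288 and 6993 CPM in choroid plexus epithelium-like and 8618 and 9121 CPM in cortical excitatory neuron-like nuclei. Channel genes counted in the fibroblast-like, endothelial cell-like and choroid plexus epithelium-like classes stood beside this level of neuronal RNA, whose part in them was not tested.

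Together the 40 genes had 67738 and 81594 UMIs, or 3937 and 4105 CPM. At least 1000 UMIs over both libraries were counted for 23 of them and at least 100 for 31. The other 9 had 2 to 75 UMIs. They were Scn4a, Cacna1s and Cacng6, which belong to skeletal muscle, Scn10a and Scn11a of sensory neurons, the retinal L-type pore Cacna1f, Scn7a, Scn4b and Cacna2d4. Of the 9 skeletal muscle markers examined, 8 had UMIs and Myog had none, with a summed level of 93.2 and 76.5 CPM. All 40 genes were found in the GENCODE M39 annotation of GRCm39. The longest was Cacna2d3 at 818 kb, and over the 40 genes the level in the wildtype-labelled library ranked with gene length (Spearman rho 0.65, n = 40, across genes that share a library). With exon length the rho was 0.59. Levels of different genes are therefore compared as CPM per kb of gene, and UMI totals are given as counts. Whether introns were counted is not given, so rankings per length depend on the choice of full gene length. Cacnb3, for example, held 17.5% and 17.0% of calcium channel beta UMIs but 74.3% and 73.1% of the per-length sum. An annotated gene on the opposite strand overlapped 32 of the 40, and whether the counting used the strand is not given in the sources used here.

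**Figure D1:**
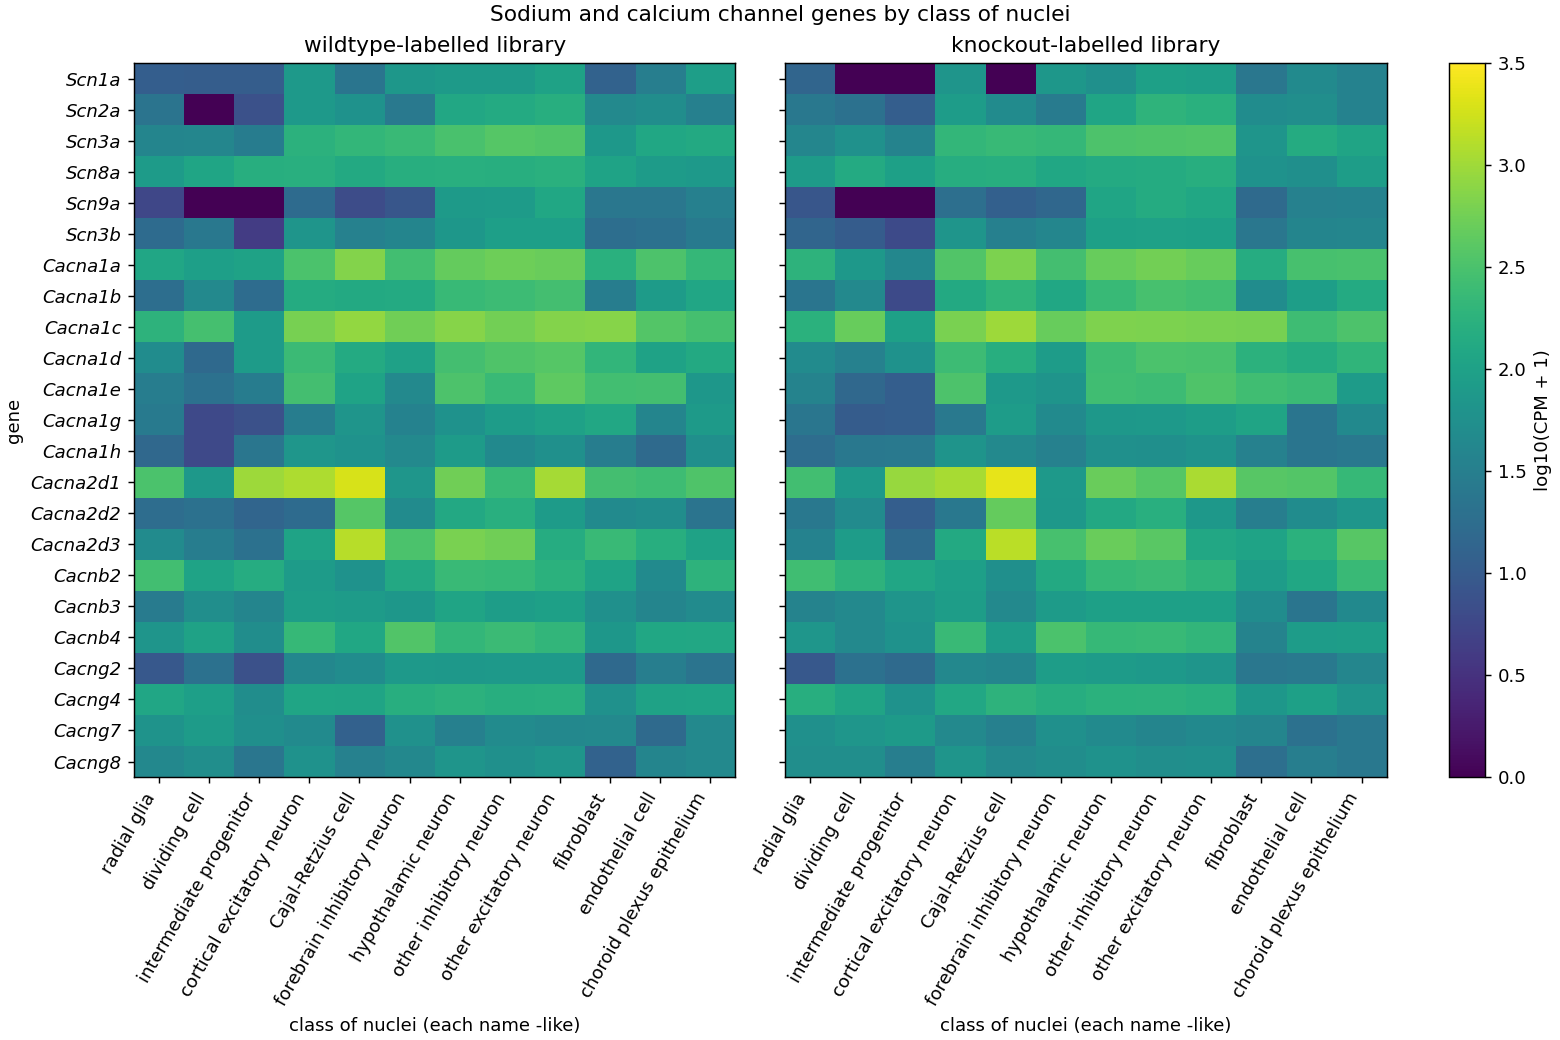
Level of the 23 genes with at least 1000 UMIs (rows) in 12 classes of nuclei (columns), as log10(CPM + 1), for the wildtype-labelled library on the left and the knockout-labelled library on the right. Cacna2d1 was brightest in Cajal-Retzius cell-like nuclei, at 1911 and 2327 CPM, and dark in forebrain inhibitory neuron-like nuclei, at 67.1 and 76.8 CPM.

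Among the sodium channel pores, Scn3a had most UMIs and the highest level per length. Scn3a is the pore-forming subunit known for its high level in brain before birth. It had 3581 and 4571 UMIs, or 208 and 229.9 CPM, and 1.88 and 2.08 CPM per kb, which was 47.7% and 47.8% of the per-length sum of the 10 alpha genes. Its highest classes were other inhibitory neuron-like nuclei, named from markers such as Gata3 and Sox14, at 379 and 339 CPM, and other excitatory neuron-like nuclei, named from markers such as Lhx9 and Pou4f1, at 349 and 350.4 CPM. The counting intervals of these classes overlapped in each library. Radial glia-like nuclei, the neural stem cells of the fetal brain, had 37.6 and 38.8 CPM, and intermediate progenitor-like nuclei, which divide to give cortical neurons, had 28.8 and 35.2 CPM.

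Scn8a, later the main pore of the axon initial segment and of the nodes of myelinated axons, was the most evenly spread of the sodium channel pores with at least 1000 UMIs. It had 2373 and 2579 UMIs, or 138 and 129.7 CPM. Its 12 class levels lay between 75.2 and 164 CPM in the wildtype-labelled library and between 55.1 and 156 CPM in the knockout-labelled library. In radial glia-like nuclei Scn8a stood at 82.9 and 83.4 CPM and in intermediate progenitor-like nuclei at 157 and 95.5 CPM. Per length it made up 43.3% and 40.0% of the sodium channel alpha signal in radial glia-like nuclei and 71.2% and 58.4% in intermediate progenitor-like nuclei, against 13.8% and 11.9% in other inhibitory neuron-like nuclei. Per length, Scn8a was the leading sodium channel alpha gene of both progenitor classes and of dividing cell-like nuclei in both libraries, and Scn3a that of the other 9 classes.

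Scn2a, an early pore of the axon initial segment, had 1393 and 2062 UMIs, or 81.0 and 104 CPM. It was highest in other excitatory neuron-like nuclei of the wildtype-labelled library and in other inhibitory neuron-like nuclei of the knockout-labelled library. The levels were 157 and 167 CPM in the former class and 135 and 186 CPM in the latter. Forebrain inhibitory neuron-like nuclei, marked by Dlx genes, had 25.2 and 27.3 CPM, below the 76.5 and 85.1 CPM of cortical excitatory neuron-like nuclei. Scn1a, whose loss of function causes a severe infant epilepsy in humans, had 1102 and 1190 UMIs, or 64.0 and 59.9 CPM. Scn1a had 103 and 89.7 CPM in other excitatory neuron-like nuclei, its highest class in the wildtype-labelled library, and 80.7 and 97.5 CPM in other inhibitory neuron-like nuclei, its highest in the knockout-labelled library, with 69.7 and 71.1 CPM in forebrain inhibitory neuron-like nuclei. Choroid plexus epithelium-like nuclei had 91.4 and 34.4 CPM, from 17 and 7 UMIs.

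Scn9a, known from sensory and hypothalamic neurons, was counted mainly in 3 neuron classes. It had 771 and 1258 UMIs, or 44.8 and 63.3 CPM. Other excitatory neuron-like nuclei had 121 and 122 CPM, other inhibitory neuron-like nuclei 82.3 and 143 CPM and hypothalamic neuron-like nuclei 79.5 and 112 CPM. The cortical and forebrain inhibitory classes were lower, at 15.8 and 17.7 CPM in cortical excitatory neuron-like and 7.75 and 13.6 CPM in forebrain inhibitory neuron-like nuclei. No Scn9a UMI was counted in intermediate progenitor-like nuclei of either library, where the upper limits of the intervals were 11.8 and 18.6 CPM.

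A group of 5 of these genes, Scn3a, Scn2a, Scn1a, Scn9a and Scn7a, lie on chromosome 2 within 1328 kb (65287462 to 66615367, GRCm39). Only Scn2a is on the plus strand. In forebrain inhibitory neuron-like nuclei, Scn3a had 2.09 and 1.91 CPM per kb, Scn1a 0.409 and 0.417 and Scn2a 0.172 and 0.186 CPM per kb.

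Among the sodium channel beta genes, Scn3b had 990 and 1344 UMIs, or 57.5 and 67.6 CPM, and it led the family per length at 2.43 and 2.86 CPM per kb. Scn3b binds the pore without a covalent bond. Its highest class was other inhibitory neuron-like nuclei at 94.6 and 98.6 CPM, barely above the 94 and 95.2 CPM of other excitatory neuron-like nuclei, and radial glia-like nuclei had 15.8 and 12.9 CPM. Scn2b, which is bound to the pore by a disulfide bridge, had 88 and 163 UMIs. Scn4b had 3 UMIs and 1 UMI.

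Among the calcium channel pores, the L-type gene Cacna1c had most UMIs, while the P/Q-type gene Cacna1a led per length. Cacna1c had 9281 and 10388 UMIs, or 539 and 523 CPM, and 0.885 and 0.857 CPM per kb. Cajal-Retzius cell-like nuclei, the reelin-secreting neurons of the outermost cortical layer, had the highest Cacna1c level at 856 and 962 CPM. Hypothalamic neuron-like nuclei had 734 and 659 CPM, cortical excitatory neuron-like nuclei 613 and 621 CPM and, among non-neural classes, fibroblast-like nuclei 739 and 597 CPM. Radial glia-like nuclei had 180.1 and 169 CPM and intermediate progenitor-like nuclei 83.3 and 95.5 CPM. Cacna1c was above the level of radial glia in dividing cell-like nuclei, at 291 and 479 CPM. That class is a single cluster whose leading genes held Dlx1 beside Kif11 and Knl1.

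The other L-type pore of brain, Cacna1d, had 3719 and 4471 UMIs, or 216 and 225 CPM. Cacna1d was highest in other excitatory neuron-like nuclei at 376 and 316 CPM and other inhibitory neuron-like nuclei at 343 and 322 CPM, with 99.4 and 86.1 CPM in forebrain inhibitory neuron-like nuclei. In Cajal-Retzius cell-like nuclei, the highest class of Cacna1c, it had 138 and 156 CPM. Cacna1c and Cacna1d thus differed in their order over the neuron classes in both libraries.

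The genes of the P/Q-, N- and R-type channels, the main calcium sources of transmitter release, were all counted above the level of radial glia in the neuron classes. Cacna1a had 5665 and 7555 UMIs, or 329 and 380.1 CPM, and 1.09 and 1.26 CPM per kb. Cajal-Retzius cell-like nuclei led at 702 and 650.3 CPM, followed by other inhibitory neuron-like nuclei at 535 and 559 CPM. The leading pore per length varied by class: in both libraries it was Cacna1b in other excitatory neuron-like, Cacna1c in dividing cell-like and Cacna1g in fibroblast-like nuclei. Cacna1b, the N-type pore, had 2659 and 3494 UMIs, or 155 and 176 CPM, with 284 and 278 CPM in other excitatory neuron-like and 253 and 301 CPM in other inhibitory neuron-like nuclei. Intermediate progenitor-like nuclei had 16 and 5.03 CPM of Cacna1b.

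Cacna1e, the R-type pore, was higher in the cortical excitatory class as a whole than in the forebrain inhibitory class. In the cortical cluster with Unc5d, described below, its level was under that of the forebrain inhibitory class. Cacna1e had 4176 and 4757 UMIs, or 243 and 239 CPM. Other excitatory neuron-like nuclei had 431 and 343 CPM and cortical excitatory neuron-like nuclei 287 and 334 CPM, against 43.9 and 63.2 CPM in forebrain inhibitory neuron-like nuclei and 105 and 75.2 CPM in Cajal-Retzius cell-like nuclei. Fibroblast-like nuclei had 274 and 265 CPM. An unnamed cluster with Rarb, Isl1 and Ebf1 among its leading genes (cluster 19, 157 and 112 nuclei) also had a high Cacna1e level, 665 and 558 CPM.

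The T-type pores open at low voltage. Cacna1g had 866 and 1067 UMIs, or 50.3 and 53.7 CPM, and its highest class in both libraries was not neuronal: fibroblast-like nuclei had 125 and 108 CPM, with intervals that overlapped those around the 101 and 89.0 CPM of other excitatory neuron-like nuclei. Cacna1h had 879 and 986 UMIs, or 51.1 and 49.6 CPM, with 82.4 and 57.0 CPM in hypothalamic neuron-like and 67.5 and 63.3 CPM in cortical excitatory neuron-like nuclei. Cacna1i had 196 and 251 UMIs, and its highest classes were other inhibitory neuron-like nuclei in the wildtype-labelled library, at 30.5 (21.4 to 42.0) CPM, and hypothalamic neuron-like nuclei in the knockout-labelled library, at 28.5 (21.4 to 37.2) CPM.

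The alpha2delta genes had unlike patterns in the excitatory and inhibitory classes. Cacna2d1, whose product is the binding site of the drug gabapentin, had most UMIs of all 40 genes, 11929 and 13365 UMIs, or 693 and 672 CPM, and 1.58 and 1.53 CPM per kb. Cajal-Retzius cell-like nuclei had 1911 (1715 to 2124) CPM in the wildtype-labelled and 2327 (2113 to 2557) CPM in the knockout-labelled library. Cortical excitatory neuron-like nuclei had 1182 and 1107 CPM and other excitatory neuron-like nuclei 1065 and 1144 CPM. Intermediate progenitor-like nuclei already stood at 965 and 905 CPM, above radial glia-like nuclei at 319 and 274 CPM. Forebrain inhibitory neuron-like nuclei had only 67.1 (54.9 to 81.3) CPM and 76.8 (63.0 to 92.8) CPM, below the intervals of all 5 classes before it. Dividing cell-like nuclei, whose cluster expresses Dlx genes, had 72.9 and 76.7 CPM.

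Cacna2d3 had the opposite order between the cortical excitatory and forebrain inhibitory classes. It had 3911 and 4502 UMIs, or 227 and 226 CPM. Forebrain inhibitory neuron-like nuclei had 327 and 302 CPM, above cortical excitatory neuron-like nuclei at 106 and 131 CPM and intermediate progenitor-like nuclei at 19.2 and 15.1 CPM. Hypothalamic neuron-like nuclei had 616 and 498 CPM and other inhibitory neuron-like nuclei 548 and 407 CPM, whereas other excitatory neuron-like nuclei had 147 and 124 CPM. Cacna2d2, also a gabapentin-binding subunit, had 987 and 1479 UMIs, or 57.4 and 74.4 CPM, with 162 and 159 CPM in other inhibitory neuron-like nuclei against 15.6 and 24.0 CPM in cortical excitatory neuron-like nuclei. Per kb of gene, forebrain inhibitory neuron-like nuclei held 0.153 and 0.175 CPM of Cacna2d1, 0.373 and 0.559 of Cacna2d2 and 0.399 and 0.369 of Cacna2d3, while cortical excitatory neuron-like nuclei held 2.69 and 2.52, 0.120 and 0.185 and 0.130 and 0.160. Cajal-Retzius cell-like nuclei were the class with the highest level of all 3 genes, with 381 and 473 CPM of Cacna2d2 and 1309 and 1387 CPM of Cacna2d3.

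Shares of nuclei at equal depth gave the same order. After each nucleus was thinned to 1000 UMIs, 40.5% (32.7 to 48.7) and 38.9% (29.1 to 49.5) of intermediate progenitor-like nuclei held a Cacna2d1 UMI, against 5.26% (3.80 to 7.06) and 5.58% (3.94 to 7.64) of forebrain inhibitory neuron-like nuclei. The unthinned shares were 57.0% and 52.5% and 7.88% and 8.76%. Thinning left out 846 and 1111 shallower nuclei. Fibroblast-like nuclei at the same depth had a share of 18.1% and 27.8%, between those of the other 2 classes. No level of free RNA was measured, so none of these shares is set against one. For Cacna2d3 the thinned shares were 19.4% and 16.9% in forebrain inhibitory neuron-like, 5.76% and 7.52% in cortical excitatory neuron-like and 10.5% and 3.70% in fibroblast-like nuclei.

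Cacna2d1 and Cacna2d3 had opposite orders between cortical excitatory neuron-like and forebrain inhibitory neuron-like nuclei, though both were highest in Cajal-Retzius cell-like nuclei. Because of that contrast the 250 bases before the start of each are shown, from RefSeq on the GRCm38.p6 build. They lie at chr5:15934441-15934690 (plus strand) for Cacna2d1 and chr14:29721865-29722114 (minus strand) for Cacna2d3, and each reads 5′ to 3′ toward the gene. Capitals mark matches, on either strand, to the GC box GGGCGG, the E-box motifs CAGATG and CAGCTG, the homeodomain core TAATTA and the TATA motif TATAAA. Matches that overlap run together.
Cacna2d1: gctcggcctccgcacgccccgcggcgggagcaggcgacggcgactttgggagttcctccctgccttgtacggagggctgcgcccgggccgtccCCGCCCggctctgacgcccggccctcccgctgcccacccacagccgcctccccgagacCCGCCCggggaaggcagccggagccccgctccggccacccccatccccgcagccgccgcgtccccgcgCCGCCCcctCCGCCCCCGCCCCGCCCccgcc
Cacna2d3: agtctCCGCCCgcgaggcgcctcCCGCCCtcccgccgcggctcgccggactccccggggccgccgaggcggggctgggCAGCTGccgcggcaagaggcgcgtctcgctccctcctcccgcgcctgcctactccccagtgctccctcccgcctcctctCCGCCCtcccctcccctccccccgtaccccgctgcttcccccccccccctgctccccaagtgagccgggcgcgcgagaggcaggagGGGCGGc

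Both windows were rich in G and C, at 82.4% and 80.0%, against a median of 52.4% over all 32851 promoter windows of the same length. The Cacna2d1 window held 6 matches to GGGCGG and the Cacna2d3 window 4, and 32.7% of all windows held at least 1. The Cacna2d3 window held 1 match to CAGCTG, a motif found in 13% of all windows. Neither held CAGATG (14.4% of all windows), TAATTA (4.84%) or TATAAA (12.4%). Windows of this table were found for 30 of the 40 genes.

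**Figure D2:**
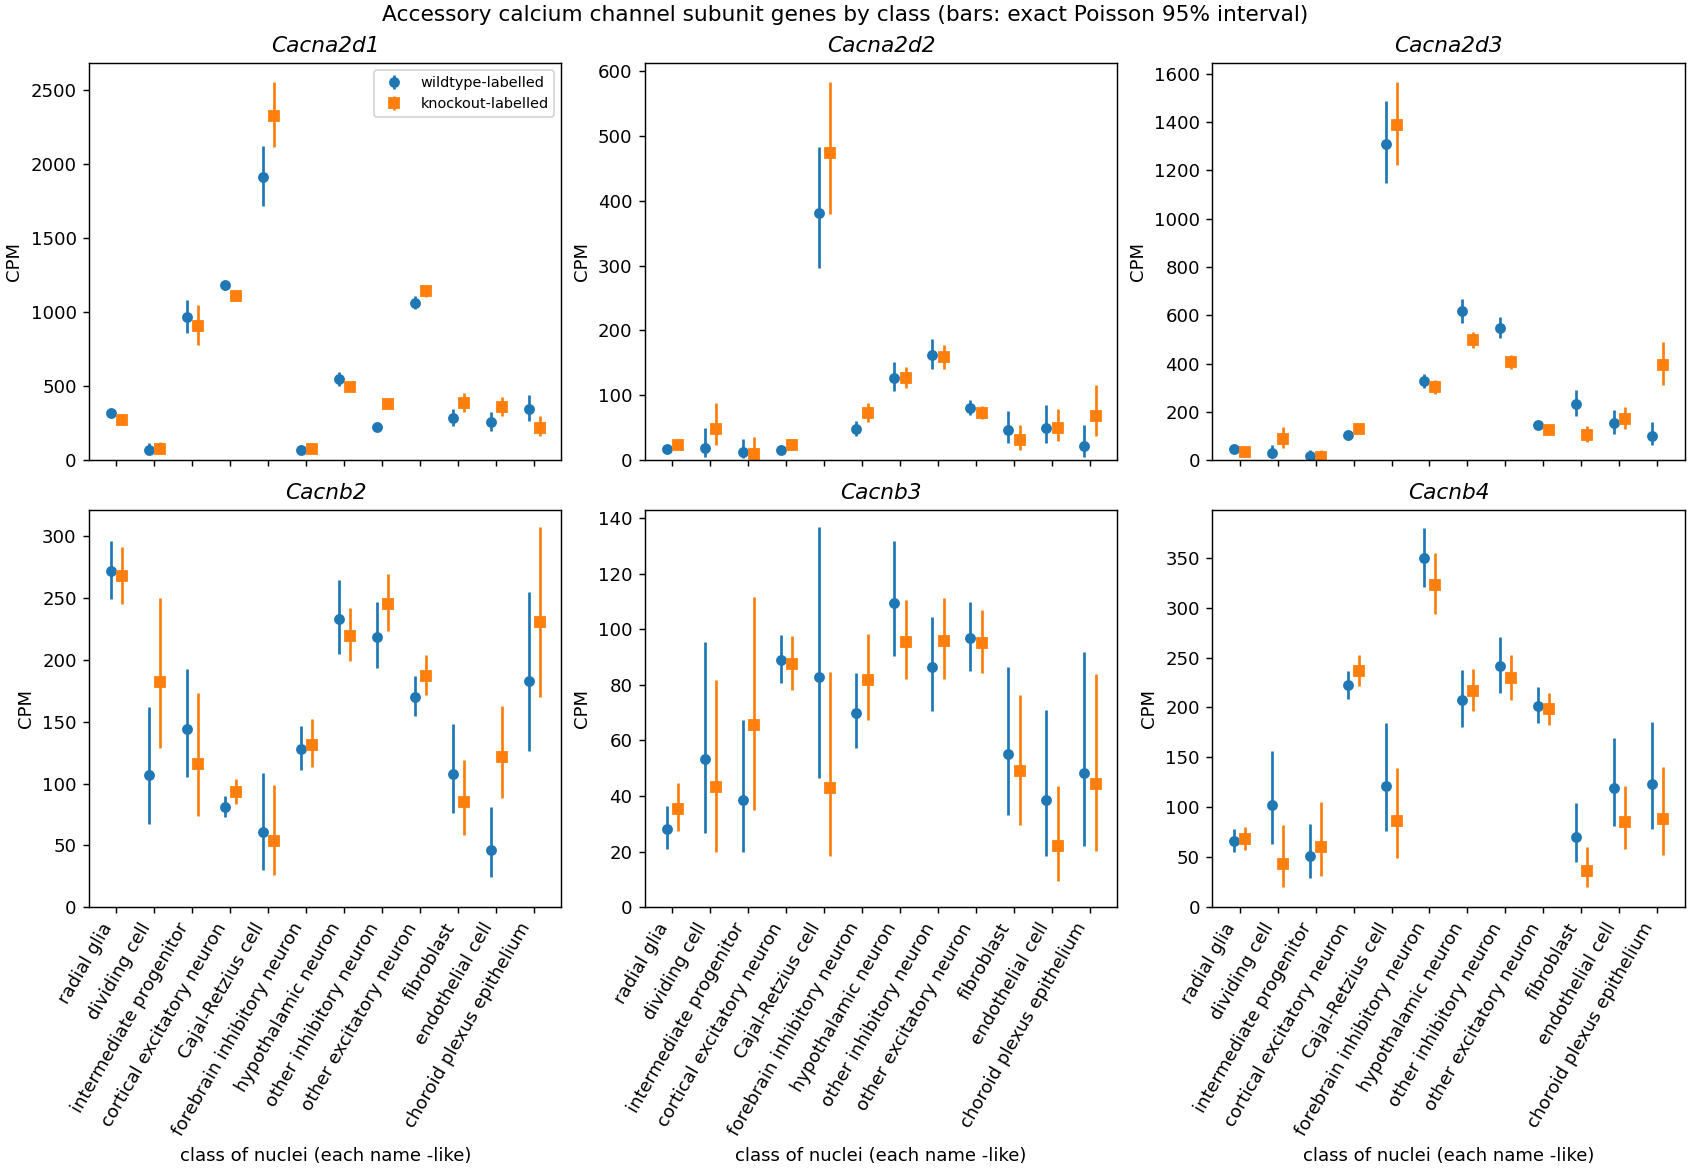
Level in CPM of 3 alpha2delta and 3 beta genes in 12 classes of nuclei. Circles are the wildtype-labelled and squares the knockout-labelled library, with exact Poisson 95% intervals. Cacnb2 was highest in radial glia-like nuclei, at 272 and 268 CPM, and Cacnb4 in forebrain inhibitory neuron-like nuclei, at 349 and 323 CPM.

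Among the calcium channel beta genes, Cacnb2 and Cacnb4 had opposite orders between radial glia-like and cortical excitatory neuron-like nuclei. Cacnb2, best known as the beta subunit of heart, had 2726 and 3492 UMIs, or 158 and 176 CPM, and radial glia-like nuclei had its highest class level in both libraries, 272 and 268 CPM. It stood at 144 and 116 CPM in intermediate progenitor-like and 81.1 and 93.2 CPM in cortical excitatory neuron-like nuclei. Some neuron classes came closer to radial glia-like nuclei: hypothalamic neuron-like nuclei had 234 and 220 CPM and other inhibitory neuron-like nuclei 219 and 245 CPM. Cacnb4, the gene mutated in the lethargic mouse with ataxia and seizures, had 3342 and 3834 UMIs, or 194 and 193 CPM and the reverse order, with 66.1 and 67.8 CPM in radial glia-like nuclei, 222 and 237 CPM in cortical excitatory neuron-like and 349 and 323 CPM in forebrain inhibitory neuron-like nuclei. Cacnb3 had 1354 and 1586 UMIs, or 78.7 and 79.8 CPM. It had the highest level per length of all 40 genes, 5.75 and 5.82 CPM per kb over all nuclei, and it led its family per length in radial glia-like nuclei too, at 2.04 and 2.57 against 0.705 and 0.693 CPM per kb of Cacnb2. Cacnb1, the beta subunit of skeletal muscle that brain also makes, had 295 and 393 UMIs and class levels of at most 23.3 and 37.6 CPM.

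The gamma genes are named after the skeletal muscle subunit Cacng1, but most of those counted here encode transmembrane AMPA receptor regulatory proteins, which carry glutamate receptors to the surface. Cacng4 had 2347 and 2992 UMIs, or 136 and 151 CPM, and it led the family per length at 2.18 and 2.41 CPM per kb. It was spread over progenitors and neurons, with 118 and 155 CPM in radial glia-like and 175 and 169 CPM in hypothalamic neuron-like nuclei. Cacng8 had 904 and 1117 UMIs, or 52.5 and 56.2 CPM, and Cacng2, or stargazin, had 829 and 1080 UMIs, or 48.2 and 54.3 CPM. Cacng2 was highest in forebrain inhibitory neuron-like nuclei, at 77.5 and 87.6 CPM, against 8.14 and 8.28 CPM in radial glia-like nuclei. Close to it were hypothalamic neuron-like (72.7 and 82.3 CPM), other inhibitory neuron-like (74.1 and 78.4 CPM) and other excitatory neuron-like nuclei (75.9 and 66.2 CPM). Cortical excitatory neuron-like nuclei had 40.7 and 41.7 CPM. Cacng7 had 804 and 883 UMIs, or 46.7 and 44.4 CPM, and its levels in dividing and progenitor nuclei were 82.6 and 67.1 CPM in dividing cell-like, 62.6 and 56.4 CPM in radial glia-like and 54.5 and 80.5 CPM in intermediate progenitor-like nuclei. Among neuron classes, forebrain inhibitory neuron-like nuclei came closest, at 58.7 and 56.7 CPM. Cacng3 had 219 and 299 UMIs. Cacng5 had 60 and 73 UMIs, and its highest class was intermediate progenitor-like nuclei, at 35.3 (17.6 to 63.1) CPM and 10.1 (1.22 to 36.3) CPM. Cacng7, Cacng8 and Cacng6 are neighbours on chromosome 7 (3380237 to 3485101), and Cacng1, Cacng4 and Cacng5 on chromosome 11 (107591493 to 107811030). Per length, Cacng7 had 1.28 and 1.22 CPM per kb and its neighbour Cacng6, with 2 and 4 UMIs, 0.00812 and 0.0141 CPM per kb. Cacng4 stood far above its neighbour Cacng1, which had 70 and 63 UMIs and 0.256 and 0.199 CPM per kb.

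Neuron-named nuclei of all kinds were then set against radial glia-like nuclei within each library. Of the 31 genes with at least 100 UMIs, 22 were 2-fold or more higher in neuron-named nuclei in both libraries, against 11.1% of all 15528 genes with as many UMIs, and 0 were 2-fold or more lower, against 11.7%. The minimum of 100 UMIs was applied to the sum over all nuclei, most of which are neuronal, so it favours genes counted in neurons. With genes that had no UMI in radial glia-like nuclei set at a floor of 3 UMIs per library, the count was 21, against 11% of all genes. Among the largest log2 ratios were those of Scn9a at 3.56 and 3.32, from 53.8 and 77.8 CPM in neuron-named nuclei against 4.58 and 7.77 CPM in radial glia-like nuclei, Cacna1b at 3.49 and 3.26, Cacna1e at 3.28 and 2.96 and Cacng2 at 2.90 and 2.99. Scn9a and Cacna1b were the highest of these in both libraries.

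By family, the 22 were 4 of 6 sodium channel alpha genes, all 3 sodium channel beta genes, all 8 calcium channel alpha1 genes, all 3 alpha2delta genes, 2 of 4 beta genes and 2 of 7 gamma genes among those with at least 100 UMIs. Among the 9 others were Scn8a, Cacnb1, Cacnb2, Cacng1, Cacng4, Cacng5, Cacng7 and Cacng8. Of these, Cacnb2 and Cacng7 were higher in radial glia-like nuclei with intervals clear of equality in both libraries. Cacnb2 had 142 and 167 CPM in neuron-named nuclei against 272 and 268 CPM in radial glia-like nuclei, log2 ratios of −0.94 and −0.68. Cacng7 had log2 ratios of −0.46 and −0.35. Cacna1g (2.06-fold in the wildtype-labelled library) lay just inside the limit and Scn8a (1.92-fold) just outside.

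**Figure D3:**
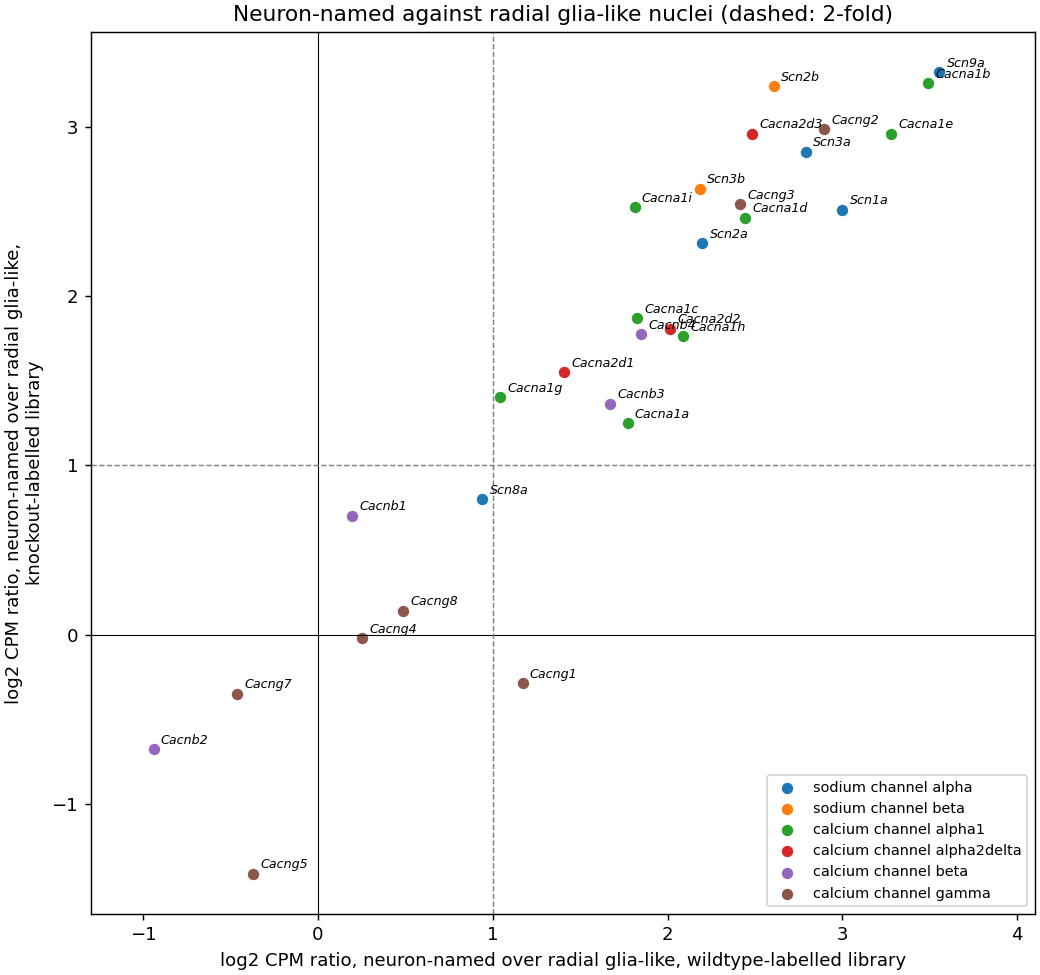
Log2 ratio of CPM in neuron-named over radial glia-like nuclei, in the wildtype-labelled (x axis) and the knockout-labelled library (y axis), for 29 of the 31 genes with at least 100 UMIs. Points are genes coloured by family, and dashed lines mark 2-fold. Cacnb2 lies at −0.94 and −0.68 and Scn9a at 3.56 and 3.32.

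Clusters of the cortical lineage were compared next. They were the radial glia-like cluster 7.0 (240 and 151 nuclei), the Eomes-led intermediate progenitor-like cluster 7.1 (165 and 101) and 4 cortical excitatory neuron-like clusters: cluster 3 with Unc5d (605 and 450), cluster 5 with Bcl6 (364 and 248), cluster 15 with Slit3 (399 and 266) and cluster 8 with Sla (403 and 312) among the leading genes. Cacna2d1 stood at 222 and 194 CPM in cluster 7.0, 965 and 905 CPM in 7.1 and 1505 and 1349.9 CPM in cluster 3, and at 661 and 648 CPM in cluster 8. Of these 6 clusters, Cacnb2 was highest in cluster 7.0 at 255 and 276 CPM and lowest in cluster 3 at 41.5 and 52.7 CPM. Cacna1c, the L-type pore, had 83.3 and 95.5 CPM in cluster 7.1, 274 and 249 CPM in cluster 3 and 682 and 736 CPM in cluster 5.

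Between the neuron clusters 3 and 8 the pores differed. Cacna1e had 36.6 and 29.4 CPM in cluster 3 and 726 and 720.4 CPM in cluster 8. Scn2a was likewise lower in cluster 3, at 20.8 and 18.2 CPM, than in cluster 8, at 110.1 and 115 CPM. Cacna1d had 87.2 and 56.8 CPM in cluster 3 and 411 and 436 CPM in cluster 8. Scn1a had the reverse order, as did Cacna2d1 above: Scn1a had 123 and 96.3 CPM in cluster 3 and 22.5 and 22.9 CPM in cluster 8. Scn1a and Scn2a, sodium channel pores of the same chromosomal group, were thus ordered oppositely over these clusters in both libraries. Cluster medians were 1978 UMIs in cluster 3 and 3022 UMIs in cluster 8, and CPM is relative to all UMIs of the cluster.

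**Figure D4:**
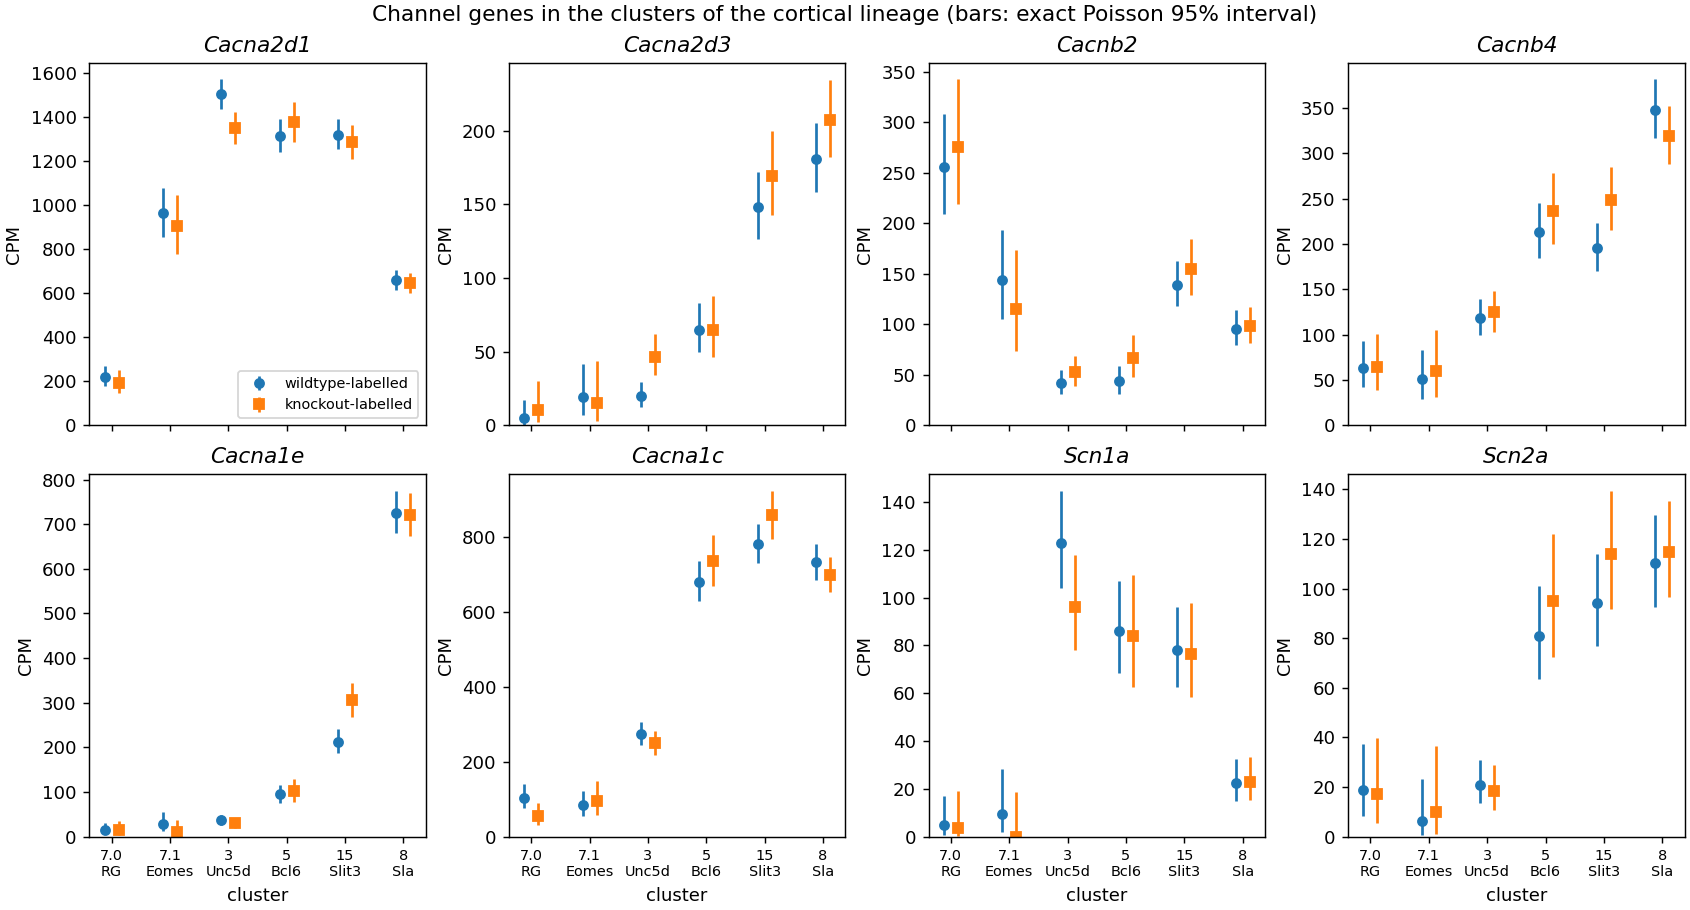
CPM of 8 channel genes in the radial glia-like cluster 7.0 (RG), the intermediate progenitor-like cluster 7.1 and 4 cortical excitatory neuron-like clusters, each with a leading gene. Circles are the wildtype-labelled and squares the knockout-labelled library, with exact Poisson 95% intervals. Cacna1e was highest in cluster 8, at 726 and 720.4 CPM, and Scn1a in cluster 3, at 123 and 96.3 CPM.

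The forebrain inhibitory neuron-like class had its own split. Cluster 4, with Lhx6 among its leading genes (586 and 456 nuclei), had 430.0 and 378 CPM of Cacnb4 and 239 and 235 CPM of Cacna2d3. Cluster 14, with Six3 among its leading genes (290 and 252 nuclei), had 172 and 214 CPM of Cacnb4 and 519 and 433 CPM of Cacna2d3. Cacng3, a regulator of AMPA receptors, had 44.1 and 44.3 CPM in cluster 4 and no UMI in cluster 14 of either library, with upper limits of 7.62 and 7.90 CPM.

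Over all kept nuclei, 2 of the 31 genes with at least 100 UMIs were past 1.5-fold, both higher in the knockout-labelled library, against 2.72% of all 15528 genes in either direction and 2.12% higher. Named here is the sodium channel beta gene Scn2b, with 88 and 163 UMIs, or 5.11 and 8.20 CPM and a log2 ratio of 0.68 (0.30 to 1.07). Scn2b is among the least counted of the 31. It was past 1.5-fold in 5 of the 6 alternative settings and not after removal of the nuclei with the highest doublet scores. Among those 5, the lower UMI minimum leaves the ratio of Scn2b as it is. Scaling by the median of gene ratios moves all genes by the same amount. Neither of these settings is therefore a check on Scn2b itself.

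Lower ratios than that of Scn2b were those of Scn9a at 0.50 (0.37 to 0.63), Cacna2d2 at 0.38 (0.26 to 0.49) and Scn2a at 0.36 (0.26 to 0.46). At the other end, Cacng1 had −0.36 (−0.87 to 0.15). The median log2 ratio of the 31 genes was 0.14, against −0.01 over all genes, of which 90% lay between −0.31 and 0.42. The libraries differed in their mix of classes: cortical excitatory neuron-like nuclei were 26.5% and 19.1% of kept nuclei, and hypothalamic neuron-like nuclei 5.31% and 9.16%. With the class mix set equal, the median of the 31 was 0.05, Scn9a stood at 0.27, Scn2a at 0.25, Cacna2d2 at 0.22 and Cacna2d3 at −0.17. Cacna2d1 had a log2 ratio of −0.04 (−0.08 to −0.01) over all nuclei and 0.04 with the mix set equal.

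**Figure D5:**
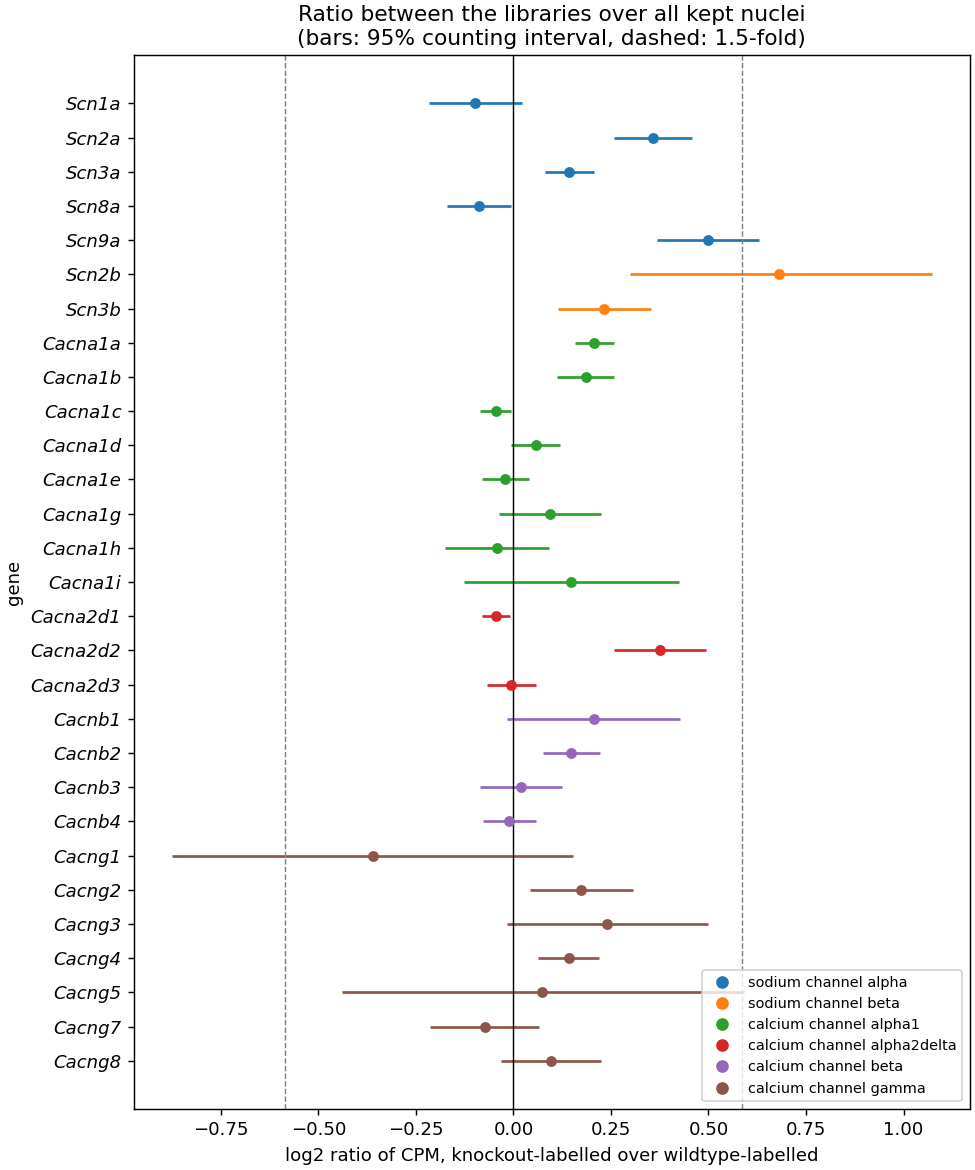
Log2 ratio of CPM, knockout-labelled over wildtype-labelled, over all kept nuclei for 29 of the 31 genes with at least 100 UMIs. Points are ratios coloured by family, bars are exact 95% counting intervals and dashed lines mark 1.5-fold. Scn2b at 0.68 lies beyond the line.

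Ratios between the libraries were also taken within the large neuron classes, beside the share of all genes past 1.5-fold. Genes with at least 50 UMIs in the class were compared. In other excitatory neuron-like nuclei 0 of 27 passed, against 5.36% of genes with as many UMIs, and in hypothalamic neuron-like nuclei 0 of 26, against 7.34%. In cortical excitatory neuron-like nuclei 1 of 25 passed (background 4.04%): Cacna2d2, with 71 and 88 UMIs, 15.6 and 24.0 CPM and a log2 ratio of 0.62 (0.15 to 1.09). In forebrain inhibitory neuron-like nuclei 1 of 24 passed (5.58%): Cacnb1, with 20 and 32 UMIs and 0.83 (−0.02 to 1.71).

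In other inhibitory neuron-like nuclei 3 of 26 passed, against 8.55% of genes. Cacna2d1 had 274 and 692 UMIs, 226 and 379 CPM, a log2 ratio of 0.75 (0.55 to 0.96). Scn9a had 100 and 261 UMIs and 0.80 (0.46 to 1.14), and Cacna1i had 37 and 34 UMIs and −0.71 (−1.42 to 0.00). Different clusters held most of this class in the libraries, cluster 2 (240 and 164 nuclei, led by Pax7 and Dmbx1) in the wildtype-labelled and cluster 10.3 (179 and 309 nuclei, with Gata3 and Pax2 among its leading genes) in the knockout-labelled library. Within cluster 2, Cacna2d1 had 102 and 192 CPM, and within cluster 10.3 it had 331 and 440 CPM, log2 ratios of 0.91 (0.41 to 1.42) and 0.41 (0.18 to 0.64). Scn9a had 0.33 (−0.01 to 0.69) within cluster 10.3, and 6 and 12 UMIs in cluster 2. Cacna1i had −1.17 (−1.97 to −0.38) within cluster 10.3 and 0.10 (−1.75 to 1.90) within cluster 2, from 7 and 6 UMIs. General neuron markers were also higher in the knockout-labelled nuclei of the class, at 16810 and 20629 CPM.

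In radial glia-like nuclei 1 of 21 passed, against 6.4% of genes. It was the P/Q-type pore Cacna1a, with 230 and 354 UMIs, 117 and 183 CPM and a log2 ratio of 0.65 (0.40 to 0.89). A Cacna1a UMI was found in 152 of 867 and 210 of 759 nuclei. The libraries held the radial glia-like clusters unequally: cluster 1.1, high in Cacna1a at 382 and 331 CPM, had 30 and 84 nuclei with 32 and 76 UMIs of the gene, and a ratio of −0.21 (−0.82 to 0.44). Of the 10 clusters, 7 had a higher level in the knockout-labelled library. Cluster 1.0 had the reverse, 691 and 341 CPM from 11 and 18 nuclei, a ratio of −1.02 (−2.03 to −0.03). The ratio was 0.92 (0.00 to 1.86) in cluster 7.0, the largest in the wildtype-labelled library, 0.92 (0.30 to 1.55) in cluster 17, the largest in the knockout-labelled library, and 0.01 (−0.78 to 0.79) in cluster 16, counted among the 7. General neuron markers differed by 0.22 (0.17 to 0.27) in the class, by −0.06 in cluster 7.0 and by 0.22 in cluster 17. Their part in the Cacna1a ratio was not tested. With the nuclei of highest doublet score removed the Cacna1a ratio was 0.60 (0.33 to 0.88).

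The small classes gave 9 more pairs past 1.5-fold, with backgrounds of 10.5% to 16.8%. In choroid plexus epithelium-like nuclei 2 of 7 passed (16.8%). Cacna2d3 had 19 and 80 UMIs there, found in 15 of 47 and 15 of 46 nuclei, so about the same share of nuclei held it. In the knockout-labelled library 20 of the UMIs came from 1 nucleus. The log2 ratio of Cacna2d3 was 1.95 (1.21 to 2.75), and that of Cacna2d1 was −0.64 (−1.22 to −0.06). With the nuclei of highest doublet score removed these became 0.84 (−0.13 to 1.88) and 0.54 (−0.41 to 1.54). Cacna2d3 then had 14 and 28 UMIs, and Cacna2d1 had 16 and 26, down from 64 and 45. Both genes were then under the UMI minimum for a class, and both intervals included equality. The change in sign of the Cacna2d1 ratio therefore does not settle its direction. In fibroblast-like nuclei 2 of 10 passed (12.3%), Cacna2d3 with −1.14 (−1.72 to −0.58), or −2.62 (−3.91 to −1.54) with the highest doublet scores removed, and Scn8a with −0.82 (−1.65 to −0.03). In dividing cell-like nuclei 2 of 3 passed (10.5%), Cacna1c with 0.72 (0.24 to 1.20) and Cacnb2 with 0.77 (−0.03 to 1.60). Cajal-Retzius cell-like nuclei gave 1 of 10 (14.5%), Cacng4 with 0.73 (−0.11 to 1.60). Endothelial cell-like nuclei gave 1 of 11 (15.4%), Cacnb2 with 1.39 (0.44 to 2.44). Intermediate progenitor-like nuclei gave 1 of 3 (11.9%), Scn8a with −0.72 (−1.56 to 0.07).

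Genes that anchor, modulate or work beside these channels, 42 by list, were followed as well. The matrices held 40 of these symbols, 38 with at least 100 UMIs. Of the 38, 0 were past 1.5-fold between the libraries, against 2.72% of all genes. Their median log2 ratio was 0.10. The most counted were Ank3, the ankyrin that holds sodium channels at the axon initial segment, at 23825 and 28772 UMIs, log2 ratio 0.06, and its relative Ank2, with 19557 and 22070 UMIs and −0.03. In neuron-named against radial glia-like nuclei, 17 of the 38 were 2-fold or more higher in both libraries and 1, Gem, was lower, against 11.1% and 11.7% of all genes. Snap25 and Syt1, among the 17, were also on the general neuron marker list. Unlike the channel genes, the partner genes were not left out of the clustering, so this count is not independent of the classes. Gem, a small GTPase that binds calcium channel beta subunits, had 58 and 74 UMIs.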

How the data were processed

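Single nuclei of 1 wildtype and 1 Cav1 knockout fetal mouse brain library were profiled with droplet 3′ chemistry. The authors deposited unnormalized UMI counts for each barcode, and the headers of the matrices name Cell Ranger 6.1.1. Per the submitters' processing notes, Cell Ranger 3.0.1, STAR and the build GRCm39 were used. Whether introns were counted, and by strand, is not given in the sources used here.

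From the 9763 and 10811 barcodes deposited, nuclei with at least 500 genes and at most 5% mitochondrial UMIs were kept. The libraries shared 43 barcode sequences before this filter. Nuclei were clustered with scanpy 1.11.5 on 1995 genes, those left of the 2000 most variable after the channel genes, Cav1, mitochondrial and sex-linked marker genes were taken out (30 principal components, 15 neighbours, resolution 1). Clusters were named from marker lists, by at least 3 markers at 2-fold, and these rebuilt names are not the authors'. Scrublet's automatic threshold called 0 doublets in either library and was not used. No nuclei were removed as doublets, and the 8% with the highest scores were removed only as an alternative.

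Counts were summed per class and library, and CPM scale them to 1e6 UMIs of the same class and library. Poisson, binomial and conditional binomial intervals are exact (95%) and cover counting error only. With 1 library per group no test was possible, so genes are described by a fixed fold, at 100 UMIs over both libraries or 50 within a class. The ratio script was tested on simulated data. Genes were named in full at 1000 UMIs or past 1.5-fold, with the highest class of each pore, and of the partner list those past 1.5-fold and the most counted pair. Genes named outside that rule were chosen after their values were seen. The genes and lists were chosen with earlier results of these data known. Of the 55416 features, 98.8% matched GENCODE M39. Promoter windows came from RefSeq, GRCm38.p6. Some items are not reported here.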

Additional observations from a re-analysis of the deposited data

Results flagged for a closer look

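Cacna2d1 and Cacna2d3 had library ratios of opposite sign in different classes, each with a counting interval clear of 0. For Cacna2d1 the log2 ratio, knockout-labelled over wildtype-labelled, was 0.75 in other inhibitory neuron-like nuclei and −0.64 in choroid plexus epithelium-like nuclei. For Cacna2d3 it was 1.95 in choroid plexus epithelium-like and −1.14 in fibroblast-like nuclei. A Cacna2d3 UMI was found in 15 of 47 and 15 of 46 nuclei of the former class and in 22 of 108 and 13 of 110 of the latter. With 1 library per group the differences between classes were not tested. Leaving out the nucleus with most UMIs of the gene in each library gave 0.81 (0.60 to 1.03) and −0.47 (−1.13 to 0.17) for Cacna2d1, and 1.73 (0.93 to 2.60) and −1.41 (−2.10 to −0.76) for Cacna2d3, in the same order. Removal of the nuclei with the highest doublet scores gave 0.81 (0.60 to 1.02) and 0.54 (−0.41 to 1.54) for Cacna2d1, which then had 1 sign in both classes. For Cacna2d3 it gave 0.84 (−0.13 to 1.88) and −2.62 (−3.91 to −1.54). The choroid plexus epithelium-like ratios then rested on 16 and 26 UMIs of Cacna2d1 and 14 and 28 of Cacna2d3. Both genes were there under the UMI minimum for a class, with intervals that included equality, so these ratios settle no direction.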

How the results depend on the processing

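Past 1.5-fold between the libraries were 2 channel genes in the main setting, 2 under a minimum of 200 or of 1000 genes per nucleus, scaling by the median of gene ratios or an equal class mix, and 3 with a minimum of 20 UMIs, which added Scn10a. With the highest doublet scores removed the count was 1. Scn2b then had a log2 ratio of 0.58, just under 1.5-fold and within its interval of the main setting. The cause of that shift was not tested. Of the partner genes, 1 passed with the highest doublet scores removed and 0 in the 4 other alternatives. It was Stac, with a log2 ratio of 0.59 there and 0.49 (0.17 to 0.82) in the main setting. Of 125 single ratios recomputed, 116 moved by less than their interval and 9 moved, all under the equal class mix. Of these 9, Cacna2d1 turned from −0.04 to 0.04. Scaling by the median of gene ratios moved all genes by the same amount, so its part of the 116 is no check on single genes. The 22 genes 2-fold higher in neuron-named nuclei became 19 to 22 under 6 alternatives, with none gained. Cacna1g was lost in 4 of these, Cacna1a in 2, and Cacna2d1 at resolution 0.5. Within classes the 15 pairs became 18 with the highest doublet scores removed, an alternative chosen after seeing the data. No paired analysis was possible because each group held 1 library. Depth limits the 9 genes under 100 UMIs and the classes of about 50 nuclei.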
